A study of Rattus norvegicus with 24 samples.

Results

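Whole rat brain was compared between 10 exposures to isoflurane and no repeated exposure, using the 3 arrays titled for 10 isoflurane exposures and the 12 titled as controls, 15 of the 24 arrays of the series. Isoflurane was given at 1% for 90 min per exposure, with 2 exposures a day and 3 h of recovery between them, over 5 days. The controls received 3 min of halothane, another inhaled anaesthetic, and were then perfused with ice-cold saline; no sham exposure of equal length is described for them, and the labels mention perfusion for the controls alone. Strain, age, sex and the time from the last exposure to tissue collection are not stated in the labels. Nothing in the labels says that replicates are separate animals, and p-values then reflect only how far these samples spread, which may be technical. For side-by-side values, 3 arrays after 5 isoflurane exposures over 2.5 days and 3 arrays after 10 halothane exposures at 0.8% over 5 days were used.

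Isoflurane is a halogenated ether that deepens inhibition at GABA type A and glycine receptors, opens two-pore potassium channels and dampens excitatory transmission through nicotinic and glutamate receptors. Repeated anaesthesia is also a bodily stress, and the brain answers stress and altered activity through immediate early genes, heat shock proteins, neuropeptides and glucocorticoid-responsive genes. Whole brain mixes all regions and cell types, so for a gene confined to one of them fewer such cells and less RNA per cell cannot be told apart.

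The deposited signals had nearly equal trimmed means on all arrays, 150.149 to 150.181. The share of probe sets above the floor of 16.5 signal units used before taking log2 was 73.1% to 80.1% on the exposed arrays and 72.5% to 77.4% on the controls. The log2 ratio of 3' to 5' GAPDH probe sets, a measure of RNA integrity, was -0.07 to 0.03 on the exposed arrays and -0.19 to 0.11 on the controls. The same ratio for beta-actin was 0.68 to 1.10 on the exposed arrays and 0.44 to 1.07 on the controls. Exposed replicate 1 had the highest beta-actin ratio, above every control. The part of RNA integrity in the values of replicate 1 was not tested. Signals of 9 bacterial spike-in probe sets split the arrays into a high level (5 controls and exposed replicate 3) and a low level (7 controls and exposed replicates 1 and 2). The labelled tissue was checked by markers of neurons (Map2, Nefl, Snap25), astrocytes (Aqp4, S100b) and myelin (Mbp, Mag, Mog), all of which lay above the floor on every exposed array. The neuron list had mean log2 signals of 9.613, 9.722 and 9.325 on exposed replicates 1, 2 and 3. The controls had 9.334 to 9.678, so replicate 2 lay above and replicate 3 below them. The myelin list had 8.80, 8.85 and 8.49 against 8.60 to 9.03, with replicate 3 below the controls.

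No probe set of the 7389 tested passed an adjusted p of 0.05 in limma, which is 0% called, and the lowest adjusted p was 0.0526. An unadjusted p under 0.05 was reached by 669 probe sets (9.05%), of which 330 were higher (4.47%) and 339 lower (4.59%). Over all tested probe sets the mean was higher for 3657 (49.5%) and lower for 3730 (50.5%), the background for the counts of higher and lower list members. After centring each array on its median the split was 425 higher and 266 lower. Leaving out 1 exposed array moved the background. Over the 4206 genes with 1 probe set each, the median was -0.04 with 2363 lower without replicate 2. It was 0.01 with 2042 lower without replicate 1, and 0.03 with 1942 lower without replicate 3. These are the background for list values with 1 exposed array left out. The 3 exposed arrays all lay above the 12 controls for 36 probe sets (0.487%) and all below them for 32 (0.433%). Differences were mostly small: the median absolute log2 fold change was 0.16 and the 95th percentile 0.54, while the 95% interval reached a median of 0.41 to either side. A log2 fold change of at least 1 in size was found for 21 probe sets, 16 of them lower. Every gene value below is therefore a ranked difference that did not pass the test over all probe sets.

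**Figure D1:**
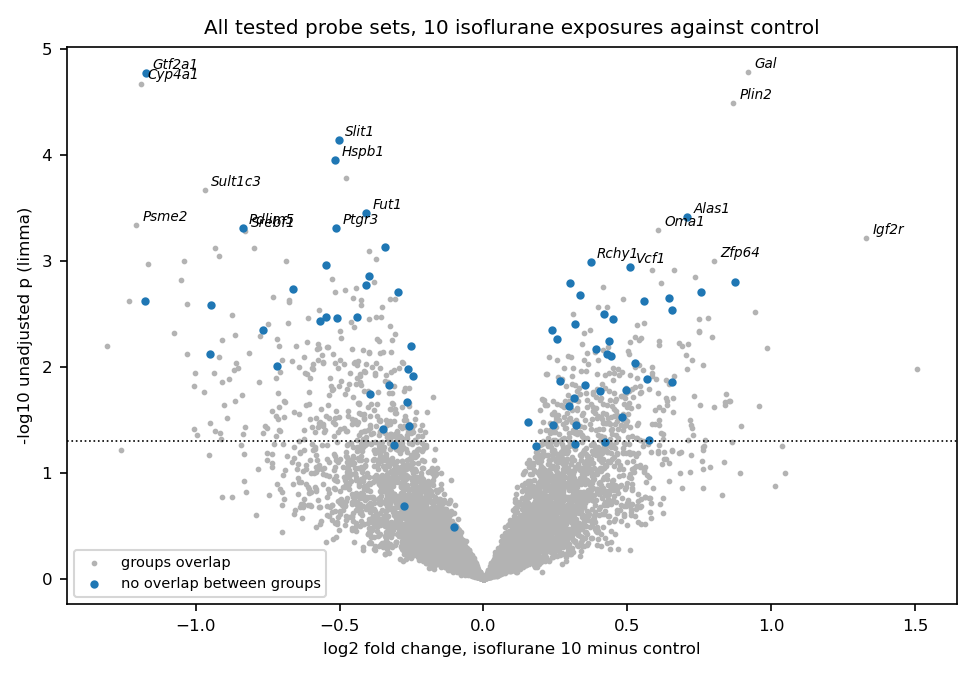
Each point is 1 of the 7389 tested probe sets; the horizontal axis is the log2 fold change (10 isoflurane exposures minus control) and the vertical axis -log10 of the unadjusted limma p, with the dotted line at 0.05. Blue points are probe sets whose 3 exposed and 12 control arrays do not overlap; Gtf2a1 and Gal stand at the top on either side, and neither passed the adjusted threshold.

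Gal encodes galanin, a neuropeptide made in hypothalamic neurons and in the noradrenergic cells of the brainstem. Its signal was 6.9, 39.5 and 47.0 on exposed replicates 1, 2 and 3, against 5.3 at the lowest, 7.85 at the median and 17.0 at the highest of the controls. Replicates 2 and 3 lay above every control, while replicate 1 lay among them and under the floor, as did 11 of the 12 controls. Its log2 fold change (also called log2 difference here, exposed minus control) was 0.92 (SE 0.17, adjusted p = 0.0526), a value that depends on the floor because the control level is mostly below it. Without replicate 1 it was 1.38 with an adjusted p of 5.89e-09, and without replicate 3 it was 0.63 with an adjusted p of 0.211. Values set to the floor have no spread among them, so the SE and these adjusted p-values depend on the floor as well. The lowest adjusted p came from leaving out the 1 exposed array that lay among the controls. Among arrays of low spike-in level the difference was 0.62 and among those of high level 1.51.

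Some other hypothalamic peptide genes lay below every control on exposed replicate 1, where Gal lay within the control range. Pmch, which encodes melanin-concentrating hormone, had signals of 14.6, 172.8 and 186.1, against 30.1, 184.35 and 279.3 for the lowest, median and highest control. Oxt, the oxytocin gene, had 26.1, 219.7 and 295.2 against 86.0, 190.45 and 408.2, and Avp, the vasopressin gene, had 102.0, 511.5 and 501.9 against 253.1, 443.8 and 815.5. For each of these 3 genes replicate 1 was below every control and replicates 2 and 3 lay within the control range. The mean log2 signal over the 13 measured hypothalamic markers, Gal among them, was 5.43, 6.65 and 6.38, against 6.10 to 6.48 on the controls, so replicate 1 lay below and replicate 2 above all controls. The list's median log2 fold change was -0.23 with replicate 1 and 0.08 without it. The part of hypothalamic content in the Gal value was not tested.

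Exposed replicate 2 also stood apart in genes of the pituitary, the gland below the hypothalamus. Gh1, which encodes growth hormone, had 34.1, 178.9 and 22.2, against 21.1, 43.55 and 105.9 for the lowest, median and highest control. Pomc, the precursor of corticotropin, had 24.6, 194.5 and 52.4 against 12.9, 30.55 and 67.7, and Prl, the prolactin gene, had 14.5, 48.0 and 4.2 against 6.3, 22.95 and 44.7. Replicate 2 exceeded every control for these 3 genes, and the mean over the 11 measured pituitary markers was 5.23, 6.49 and 5.38 against 5.32 to 6.12. Pomc therefore had a log2 difference of 0.89 (adjusted p = 0.631) that came from 1 array.

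Of the 10 measured markers of the cerebellum, 9 had a higher and 1 a lower mean after isoflurane, 4 with an unadjusted p under 0.05, and the median log2 fold change was 0.46, beside 0.00 over all 4206 genes. None of the 10 passed the adjusted threshold or lay outside all controls. Pvalb, the parvalbumin gene of Purkinje cells and inhibitory interneurons, had 736.6, 438.1 and 1080.4, against 286.6, 444.3 and 658.5 for the lowest, median and highest control, a log2 difference of 0.66 (SE 0.24, adjusted p = 0.385). Calb1, the calbindin gene of Purkinje cells, had 1106.3, 736.0 and 1297.6 against 500.2, 772.75 and 1068.7, a log2 fold change of 0.47. Itpr1, the calcium release channel abundant in Purkinje cells, had 1046.1, 638.6 and 1047.9 against 454.4, 628.65 and 936.6, a log2 fold change of 0.46. In all 3 genes replicates 1 and 3 lay above every control and replicate 2 near the control median.

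The same arrays differed across the cerebellar list as a whole. Its mean log2 signal was 9.26, 8.63 and 9.51 on exposed replicates 1, 2 and 3 and 8.13 to 9.08 on the controls. Replicate 3 of the other exposed groups had 9.12 to 9.61, also above every control and also at the high spike-in level. Replicate 1 after 5 halothane exposures (9.29) and replicate 2 after 10 (9.22) lay above the controls as well. The part of replicate 3 and of the array level in the cerebellar values was not tested. Slc1a6, a glutamate transporter of Purkinje cells, had 42.6, 16.8 and 143.1 with a log2 fold change of 1.01, and Neurod1 and Gabra6, expressed in granule cells, had 0.50 and 0.49. Grin2c, a granule cell NMDA receptor subunit, was the lower member, at -0.20. The list median was 0.34 without replicate 1, 0.70 without replicate 2 and 0.27 without replicate 3, and 0.19 among arrays of low and 0.93 among arrays of high spike-in level. Against the same controls the list median was 0.22 after 5 isoflurane and 0.63 after 10 halothane exposures. The part of cerebellar content in the values of Itpr1, Gabra6, Slc1a6 and other genes described further on was not tested.

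Other region lists had medians smaller in size than that of the cerebellar list. Of the 12 striatal markers 11 were lower, with a median of -0.17; Pdyn, which encodes prodynorphin, had 585.9, 636.8 and 734.9 against a lowest control of 734.7, a log2 difference of -0.37 (adjusted p = 0.291), and was the only one with an unadjusted p under 0.05. The striatal median was -0.04 without exposed replicate 3 and -0.26 without replicate 2, and it was -0.03 at low and -0.38 at high spike-in level. The list mean was 7.25, 7.54 and 7.04 on the exposed arrays against 7.18 to 7.67 on the controls, so replicate 3 lay below them; replicate 3 of the other exposed groups had 6.68 to 6.73. The part of replicate 3 and of the array level in the striatal values was not tested. The median was 0.09 for 9 cortical and hippocampal markers, -0.12 for 17 hindbrain markers, 0.07 for 14 choroid plexus markers, 0.15 for 18 meningeal markers and -0.10 for 18 vascular markers. Olfactory markers had a median of -0.01, with a sign that differed between scalings. The medians hid array differences in opposite directions. The hindbrain list mean was 5.30, 5.84 and 5.35 on exposed replicates 1, 2 and 3 against 5.36 to 5.80 on the controls. Replicates 1 and 3 thus lay below and replicate 2 above all controls. The olfactory list mean was 5.53, 6.05 and 5.77 against 5.58 to 5.93, with replicate 1 below and replicate 2 above all controls.

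**Figure D2:**
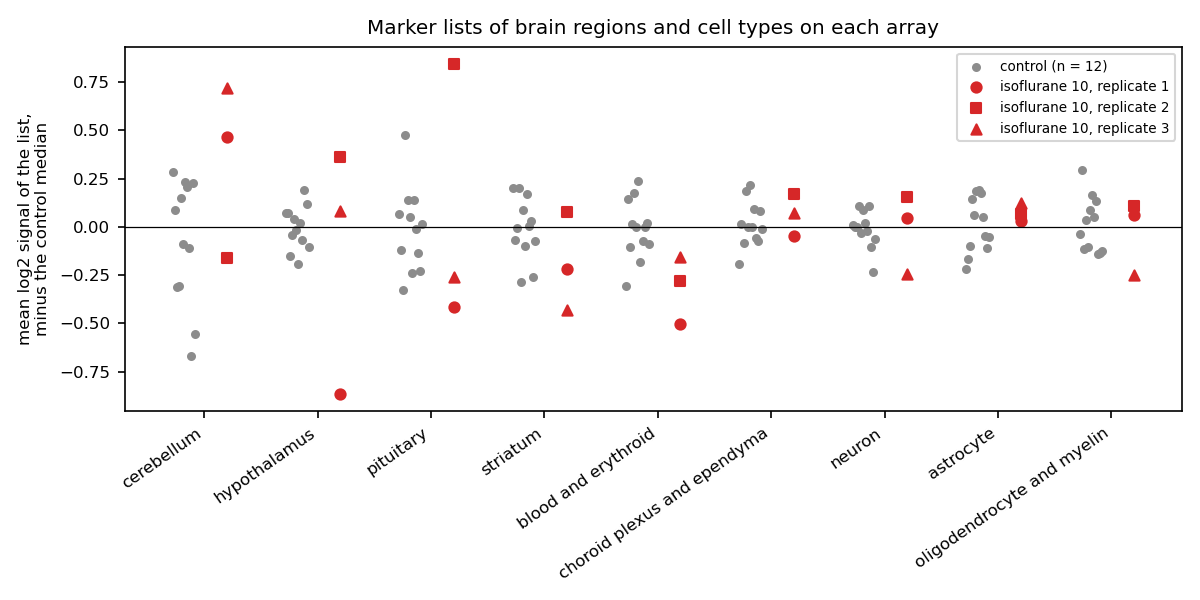
Mean log2 signal of each marker list on each array, minus the control median of that list; grey points are the 12 controls and red symbols exposed replicates 1, 2 and 3. Replicates 1 and 3 lie above all controls for the cerebellum, replicate 1 below them for the hypothalamus and replicate 2 above them for the pituitary, while astrocyte means lie within the control range. For neurons replicate 2 lies above and replicate 3 below all controls. Replicate 3 lies below them for myelin and the striatum, and replicate 1 for blood.

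Of 9 blood markers 6 had a lower and 3 a higher mean in the exposed brains. Hbb, a beta globin gene, had 87.4, 72.1 and 113.7, against 120.4, 156.4 and 304.2 for the lowest, median and highest control, and the groups did not overlap. Its log2 fold change was -0.95 (SE 0.33, adjusted p = 0.371). Hbb-b1, a near-identical globin gene whose probe set may share its transcript, had -0.86, and Alas2, the erythroid enzyme of haem synthesis, had -0.40. Of the 6 lower markers 3 had an unadjusted p under 0.05. The list median was -0.16, -0.34 without replicate 3, -0.41 at low and -0.07 at high spike-in level. The list mean was 6.24, 6.46 and 6.58 against 6.43 to 6.98 on the controls, so replicates 2 and 3 lay within the control range.

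Among the 38 measured neuropeptide genes 11 were higher and 27 lower, 2 and 4 of them at an unadjusted p under 0.05, with a median log2 fold change of -0.09. Without replicate 1 the median was -0.03 with 20 of 38 lower. Vgf, which encodes a secreted peptide precursor induced by neurotrophins and by neuronal activity, had 339.6, 341.8 and 284.4, against 354.8, 441.35 and 541.2 for the lowest, median and highest control. All 3 exposed arrays lay below the 12 controls, with a log2 difference of -0.44 (SE 0.14, adjusted p = 0.319). Pcsk2, the convertase that cleaves peptide precursors, had -0.28, and Chgb, a granule protein gene, had 0.25.

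The upstream sequences of Gal and Vgf are shown because these were the neuropeptide genes with the highest-ranked difference and with non-overlapping groups, and because both are known to respond to cyclic AMP and activity. They are the 250 bases before the RefSeq transcript start in GRCr8, on the minus strand, at chr1:210084573-210084822 for Gal and chr12:25277021-25277270 for Vgf, both found by symbol. Capitals mark TGACG or its reverse complement CGTCA, the core of the cyclic AMP response element.
Gal: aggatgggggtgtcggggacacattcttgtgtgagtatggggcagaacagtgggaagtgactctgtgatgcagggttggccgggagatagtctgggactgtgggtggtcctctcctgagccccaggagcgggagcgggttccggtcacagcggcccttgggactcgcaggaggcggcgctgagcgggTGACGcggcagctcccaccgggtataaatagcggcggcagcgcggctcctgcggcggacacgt
Vgf: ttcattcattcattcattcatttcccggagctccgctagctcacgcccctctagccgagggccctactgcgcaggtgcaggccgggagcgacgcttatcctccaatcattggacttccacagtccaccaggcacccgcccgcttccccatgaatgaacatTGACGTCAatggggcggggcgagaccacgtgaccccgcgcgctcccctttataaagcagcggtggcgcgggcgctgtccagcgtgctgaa
The Gal window held 1 core match and the Vgf window the palindrome TGACGTCA, in which 2 core matches on opposite strands overlap. The core occurred on either strand in 18.2% and the palindrome in 1.59% of 33469 rat windows of the same length. A match is a description of letters and not a measured binding site.

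**Figure D3:**
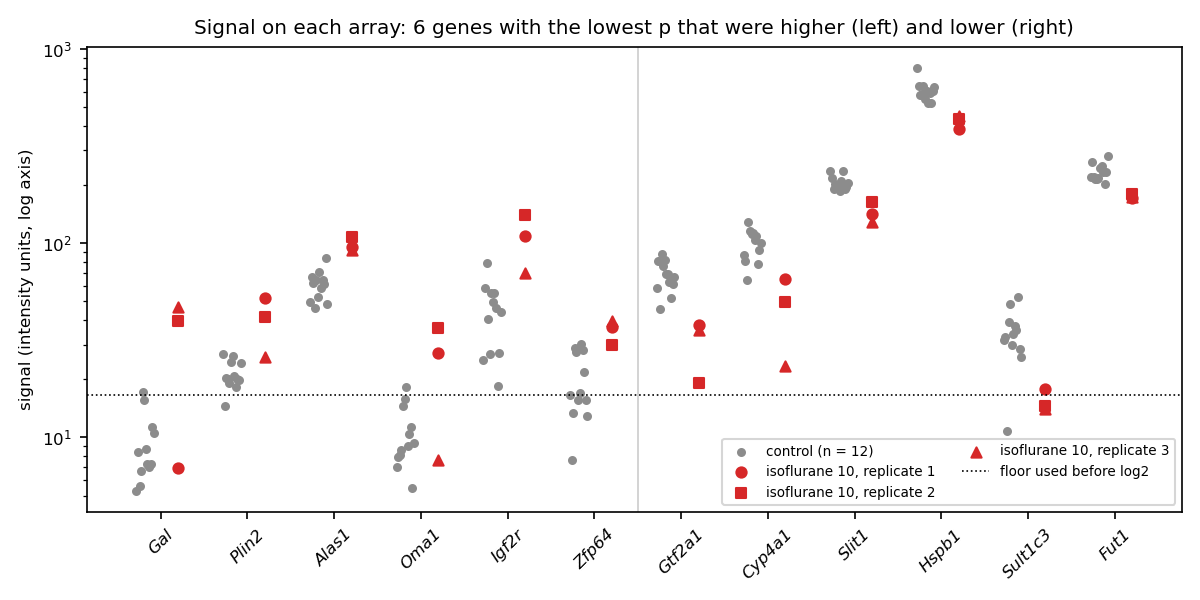
Signal on each array (log axis, intensity units) of the 6 higher genes (left) and the 6 lower genes (right) with the lowest p; grey points are the 12 controls, red symbols exposed replicates 1, 2 and 3, and the dotted line the floor of 16.5. For Gal replicate 1 lies with the controls, for Alas1 all 3 exposed arrays lie above the controls, and for Gtf2a1, Slit1, Hspb1 and Fut1 all 3 lie below.

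Among genes of lipid metabolism, Plin2 encodes perilipin 2, which coats lipid droplets and responds to fatty acids and glucocorticoids. Its signal was 52.3, 41.8 and 26.0, against 14.4, 20.05 and 26.9 for the lowest, median and highest control, so replicates 1 and 2 lay above the controls and replicate 3 within them. On the log2 scale the difference was 0.87 (SE 0.17, adjusted p = 0.0597), and without replicate 3 it was 1.15 with an adjusted p of 0.00309. A second, dimmer Plin2 probe set had 0.03. Among arrays of low spike-in level the first had 1.19 and among those of high level 0.24.

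Cyp4a1, a fatty acid omega-hydroxylase and a classic target of the receptor PPAR alpha, had 65.5, 49.9 and 23.3, against 64.3, 102.1 and 128.0 for the lowest, median and highest control. Replicates 2 and 3 lay below the controls, and the log2 fold change was -1.19 (SE 0.23, adjusted p = 0.0526). Without replicate 3 it was -0.76 with an adjusted p of 0.218, and without replicate 1 -1.51 with an adjusted p of 0.01. The other probe set for Cyp4a1 was higher in the exposed arrays, at 0.35 (adjusted p = 0.86). Near-identical Cyp4a genes may share these probe sets. Srebf1, the transcription factor that drives fatty acid synthesis, had 64.7, 88.4 and 129.5 against 117.9, 163.65 and 203.1, a log2 difference of -0.83 (adjusted p = 0.26).

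The wider lipid lists had small medians. Of 49 fatty acid oxidation and lipid droplet genes 20 were higher and 29 lower, 4 and 1 of them at an unadjusted p under 0.05, with a median of -0.05. Cpt2, a carnitine palmitoyltransferase of mitochondria, had 0.45 and Ech1, an isomerase of fatty acid oxidation, 0.25. Of 24 cholesterol and fatty acid synthesis genes 8 were higher and 16 lower, with a median of -0.07; Fasn, the fatty acid synthase gene, had -0.37. Glucocorticoid-responsive genes, which include Plin2, had 12 higher and 7 lower of 19, with a median of 0.05.

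Alas1 encodes the housekeeping enzyme that starts haem synthesis, and the liver raises it when cytochrome P450 enzymes are induced. Its signal was 94.9, 107.9 and 92.4, against 46.1, 61.9 and 83.9 for the lowest, median and highest control, with no overlap. The log2 difference was 0.71 (SE 0.17, adjusted p = 0.26), similar at low (0.75) and high (0.63) spike-in level, but a second probe set for Alas1 had -0.14. P450 genes had lower means in 27 of 38 and higher ones in 11, with a median of -0.14. The P450 median was -0.07 without replicate 1, -0.29 without replicate 2 and -0.11 without replicate 3. Over all other settings it ran from -0.29 to 0.02. Cyp2b2, a phenobarbital-inducible P450, had 20.4, 21.7 and 18.3 against 21.6, 47.45 and 89.1, a log2 difference of -1.31 (adjusted p = 0.37), and a second probe set -0.14. Conjugation enzymes were lower in 24 of 35, with a median of -0.12 that was -0.04 without replicate 3; Sult1c3, a sulfotransferase, had 17.8, 14.5 and 13.9 against a control median of 33.5, a log2 difference of -0.97 (adjusted p = 0.199), partly at the floor. Mgst2, a microsomal glutathione transferase, had -0.45.

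Gtf2a1 encodes subunits of TFIIA, a general factor of RNA polymerase II transcription. Its signal was 37.7, 19.1 and 35.8, against 45.6, 68.15 and 87.4 for the lowest, median and highest control, with all exposed arrays below the controls. The log2 fold change was -1.17 (SE 0.22, adjusted p = 0.0526), -1.48 among arrays of low and -0.65 among those of high spike-in level. Without replicate 2 it was -0.86 with an adjusted p of 0.183. The 34 basal and general transcription factor genes had 19 higher and 15 lower and a median of 0.02, and Gtf2a1 was the only member at an unadjusted p under 0.05.

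Psme2, a subunit of the interferon-inducible proteasome activator, had 93.7, 20.2 and 79.4, against 78.5, 127.85 and 154.9 for the lowest, median and highest control. The log2 difference of -1.21 (SE 0.30, adjusted p = 0.26) was -0.51 without replicate 2. Of 29 ubiquitin and proteasome genes 19 were lower and 10 higher, with a median of -0.08; Psma7, a core subunit, had -0.20. Cytosolic ribosomal protein genes had 25 higher and 12 lower of 37, with a median of 0.05.

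Heat shock genes and immediate early genes were lower in more members than they were higher. Hspb1 encodes the small heat shock protein HSP27, a chaperone of stressed neurons and glia. Its signal was 386.0, 433.6 and 450, against 525.9, 597.9 and 795.6 for the lowest, median and highest control, without overlap. Its log2 difference was -0.52 (SE 0.11, adjusted p = 0.138), -0.53 at low and -0.47 at high spike-in level. Further Hspb1 probe sets had -0.49, -0.66 and 0.14. Of 35 heat shock and chaperone genes 26 were lower and 9 higher, 5 and 0 of them at an unadjusted p under 0.05, and the median was -0.14 beside 0.00 over all genes; without replicate 3 it was -0.08 with 22 lower. Dnajb1, a co-chaperone, had -0.37, Hsp90b1, a chaperone of the endoplasmic reticulum, -0.31, and Hsf1, the heat shock transcription factor, -0.40.

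Egr1, an immediate early transcription factor that follows synaptic activity, had 761.0, 744.3 and 803.7, against 830.6, 1091.75 and 1370.8 for the lowest, median and highest control. The groups did not overlap, and the log2 fold change was -0.51 (SE 0.16, adjusted p = 0.319). Junb had -0.50 and Fos -0.41, both members of the AP-1 factors, while Btg1, an antiproliferative gene, had 0.61 and Nptx1, a neuronal pentraxin, 0.69. Over the 32 measured immediate early genes 21 were lower and 11 higher, 3 and 2 at an unadjusted p under 0.05, with a median of -0.13. Without replicate 1 the median was -0.04 with 18 of 32 lower. The list median was -0.20 at low and 0.00 at high spike-in level; the part of the array level in it was not tested.

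Growth factor genes had 40 lower and 23 higher means of 63, 7 and 3 at an unadjusted p under 0.05, with a median of -0.12. Without replicate 3 the median was -0.02 with 33 lower, and without replicate 2 it was -0.20 with 51 lower. Over all genes these 2 medians were 0.03 and -0.04. Igf2r, the receptor that clears IGF2 and sorts lysosomal enzymes, had 108.8, 140.0 and 69.7, against 18.4, 45.4 and 79.2 for the lowest, median and highest control. Replicates 1 and 2 lay above the controls, and the log2 fold change was 1.33 (SE 0.34, adjusted p = 0.281), the largest positive value among named genes at an unadjusted p under 0.05. Ngfr, the low-affinity neurotrophin receptor, had -0.48, Pdgfb, a platelet-derived growth factor gene, -0.91, and Erbb2, a receptor tyrosine kinase, 0.75. Erbb2 gave 34.3, 33.5 and 33.0 against a control median of 13.9 and a highest control of 46.3. For Erbb2 5 of the 12 controls lay above the floor, so its value and spread depend on the floor.

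Slit1, a secreted repellent of growing axons, had 140.7, 162.9 and 128.5, against 185.0, 199.95 and 234.2 for the lowest, median and highest control, and the groups did not overlap. Slit1 thus had -0.50 on the log2 scale (SE 0.10, adjusted p = 0.107), with -0.43 at low and -0.65 at high spike-in level. A second probe set had -0.13. The axon guidance and adhesion list otherwise had more higher means, 29 against 18 of 47, with a median of 0.05: Ptprz1, a receptor phosphatase of glia, had 0.46 and Nrxn3, a presynaptic adhesion gene, 0.38.

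The receptor families on which inhaled anaesthetics act were described next. GABA and glycine receptor genes had 11 higher and 11 lower means of 22 and a median of 0.00, with a sign that differed between scalings. Dbi, the diazepam binding inhibitor, had 558.2, 556.7 and 678.6 against 457.0, 517.75 and 561.2 and was the only member at an unadjusted p under 0.05, with a log2 difference of 0.20 (adjusted p = 0.455). Gabra3, a receptor subunit, had -0.38, and Gabra6, which also marks cerebellar granule cells, 0.49. Glutamate receptor genes had 21 lower and 12 higher of 33, with a median of -0.13. Grip2, a scaffold of AMPA receptors, had 153.5, 176.5 and 154.3 against a lowest control of 181.5, and Grin2b, an NMDA receptor subunit, 177.6, 153.2 and 176.1 against a lowest control of 177.8. Both were below every control, with log2 fold changes of -0.40 and -0.27. Grm5, a metabotropic receptor, had -0.94 and Gria4, an AMPA receptor subunit, 0.72.

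Acetylcholine genes were lower in 19 of 23, with a median of -0.15, and 3 of the 23 had an unadjusted p under 0.05, all lower. Chrnb2, the main beta subunit of brain nicotinic receptors, had 13.6, 20.8 and 15.5 against 18.1, 25.95 and 46.9, a log2 difference of -0.50 (adjusted p = 0.415) close to the floor. The list median was -0.04 without replicate 1, -0.33 without replicate 2 and -0.07 without replicate 3. Monoamine genes were lower in 27 of 39, with a median of -0.14; Pnmt, the enzyme that makes adrenaline, had 57.8, 54.6 and 93.0 against 77.1, 120.5 and 188.2, a log2 difference of -0.80 (adjusted p = 0.291). Without replicate 3 the monoamine median was 0.01.

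Potassium channel genes had 23 lower and 17 higher means of 40, 6 and 1 at an unadjusted p under 0.05, and a median of -0.05. Kcnf1, a silent subunit of voltage-gated channels, had 75.0, 66.8 and 44.0, all below the lowest control of 76.8, and a log2 difference of -0.72 (adjusted p = 0.382). Kcng1, another silent subunit, had -0.58, and Kcnj8, a subunit of ATP-sensitive channels, -0.61. Of the two-pore channels, Kcnk1 had -0.06 and Kcnk3, which inhaled anaesthetics open, 16.4, 19.7 and 65.1 against a control median of 14.6, a log2 difference of 0.61 (adjusted p = 0.57) that came from replicate 3. These 2 genes were chosen as two-pore channels after their values were seen. Sodium, calcium and pacemaker channel genes had 22 higher and 14 lower means of 36 and a median of 0.11, which was 0.02 without replicate 2. Cacna1a, a presynaptic calcium channel, had -0.32, and Scn1a, a sodium channel of inhibitory neurons, 0.61.

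Genes of transmitter release and signalling had small list medians. Synaptic vesicle genes had -0.05 over 53, with Unc13a, a vesicle priming gene, at -0.62; G protein and RGS genes had -0.05 over 34, with Rgs12 at -0.59. CaM kinase and protein kinase C genes had 0.05 over 28, with Camk1g at -0.68, and genes of glutamate and GABA synthesis and uptake 0.08 over 18, with Gad1, which makes GABA, at 0.35.

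Energy, redox and cell death genes gave no called member either. Oxidative phosphorylation genes had a median of -0.03 over 39; Ndufb5, a complex I subunit, had 502.3, 498.0 and 524.4 against a lowest control of 525.0, a log2 fold change of -0.25. Glucose transport and glycolysis genes had a median of 0.03 over 33, and Gpd2, a mitochondrial glycerol phosphate dehydrogenase, -0.53. Antioxidant genes had a median of 0.03 over 29, and Nfe2l2, the gene of the regulator NRF2, had 43.7, 44.7 and 67.9 against 19.9, 30.8 and 55.2, a log2 difference of 0.73 (adjusted p = 0.382).

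Apoptosis genes had a median of -0.22, which was -0.12 without replicate 1, -0.30 at low and -0.08 at high spike-in level, with 16 lower and 6 higher of 22 and 3 and 1 at an unadjusted p under 0.05. Bcl2l1, the gene of the survival protein BCL-XL, had 130.4, 121.8 and 136.4 against a lowest control of 138.7, with no overlap and a log2 difference of -0.33 (adjusted p = 0.415). Bcl2l11, which encodes the pro-death protein BIM, had -0.45 and Bnip3l, a mitophagy receptor, 0.31. Hrk, a pro-death gene of neurons and one of the 12 higher genes with the lowest p, had 94.1, 107.7 and 125.7 against 55.9, 70.15 and 98.5 and a log2 difference of 0.59 (SE 0.16, adjusted p = 0.293), while the other probe sets, one of which stands for Hrk in the list, had 0.19, 0.19 and 0.41. Pro-death genes lay on both sides of 0.

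**Figure D4:**
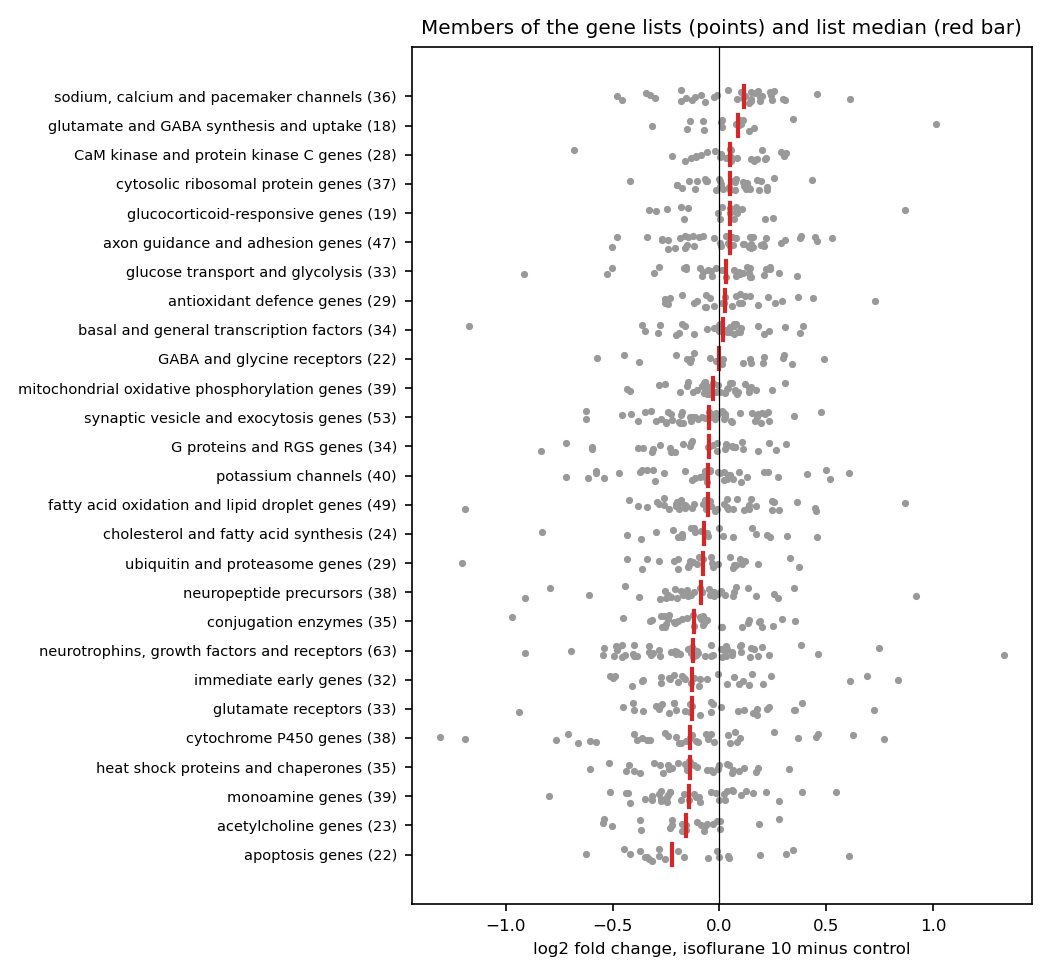
Log2 fold change (10 isoflurane exposures minus control) of each measured member of the 27 pathway lists, with the number of members in parentheses and the list median as a red bar. Medians run from -0.22 for apoptosis genes to 0.11 for sodium, calcium and pacemaker channels, and members of every list lie on both sides of 0.

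Of the remaining higher genes with the lowest p, 3 did not overlap the controls, beside 0.487% of all tested probe sets. Picking genes by p favours non-overlap, so this count adds no support. Rchy1, a ubiquitin ligase that acts on p53, had 203.2, 167.6 and 169.5 against a highest control of 161.9, a log2 difference of 0.37 (SE 0.10, adjusted p = 0.291). Vcf1, a cofactor of the ATPase VCP, had 89.1, 77.5 and 89.8 against a highest control of 69.8, a log2 fold change of 0.51. Mfng, a glycosyltransferase that modifies Notch receptors, had 40.8, 38.5 and 35.9 against a highest control of 32.3, a log2 fold change of 0.87. For Mfng 7 of the 12 controls lay above the floor, so this value depends on it. In 4 further genes the groups overlapped: Oma1, a mitochondrial protease, at 0.61, Zfp64, a zinc finger gene, at 0.80, Smc4, a condensin subunit, at 0.66, and Pnrc2, a nuclear receptor coactivator, at 0.73. For Zfp64 6 of the 12 controls lay above the floor, so its value depends on it as well. Oma1 had 27.0, 36.4 and 7.6, against 5.5, 9.15 and 18.1 for the lowest, median and highest control. Only 1 of the 12 controls lay above the floor, and exposed replicate 3 lay under it. Without replicate 3 the Oma1 value was 0.91 with an adjusted p of 0.00309, and without replicate 2 it was 0.34 with an adjusted p of 0.37. Values set to the floor have no spread among them, so these values and their adjusted p depend on the floor. Larger differences at a higher p were those of Pkib, an inhibitor of protein kinase A (0.98), Pcmtd2 (0.96) and Uncx, a homeobox gene (0.89). Without replicate 3 Pkib had 0.58 and Uncx 0.50. At low and high spike-in level Pkib had 0.42 and 2.02 and Uncx 0.29 and 1.98. A second Pcmtd2 probe set had 0.09.

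Of the remaining lower genes, likewise picked by p, 4 did not overlap the controls, beside 0.433% of all tested probe sets. Fut1, a fucosyltransferase, had 170.0, 178.2 and 173.3 against a lowest control of 201.8, a log2 difference of -0.41 (SE 0.10, adjusted p = 0.26), while other Fut1 probe sets had -0.04 and -0.27. Nme2, a nucleoside diphosphate kinase, had 831.6, 835.2 and 748.0 against a lowest control of 908.0, a log2 fold change of -0.34. Pdlim5, a scaffold that binds protein kinase C, had -0.84, and Ptgr3, a prostaglandin reductase, -0.51. Septin1, a cytoskeletal GTPase gene, had -0.93 with overlap, and 1 of its 3 exposed arrays lay above the floor. Gipr, the receptor of an incretin hormone, had 67.1, 106.7 and 12.6 against a lowest control of 72.3; its log2 fold change of -1.17 was -0.38 without replicate 3.

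The other courses were set beside these values; they share the 12 controls. Gal had a log2 fold change of 0.00 against control after 5 isoflurane and 0.00 after 10 halothane exposures, where its mean signals were 6.97 and 12.0, under the floor. Gtf2a1 had -0.19 and -0.26, Cyp4a1 0.15 and -0.25, and Plin2 0.28 and 0.35. Alas1 had 0.15 after 5 isoflurane and 0.81 after 10 halothane exposures, Igf2r 0.14 and 1.24, Sult1c3 -0.20 and -0.84, and Fut1 0.12 and -0.38. In the same order Pkib had 0.47 and 0.81, Pcmtd2 0.31 and 1.34, and Uncx -0.10 and 1.16. The median of the blood list was 0.01 after 5 isoflurane and -0.16 after 10 halothane exposures.

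**Figure D5:**
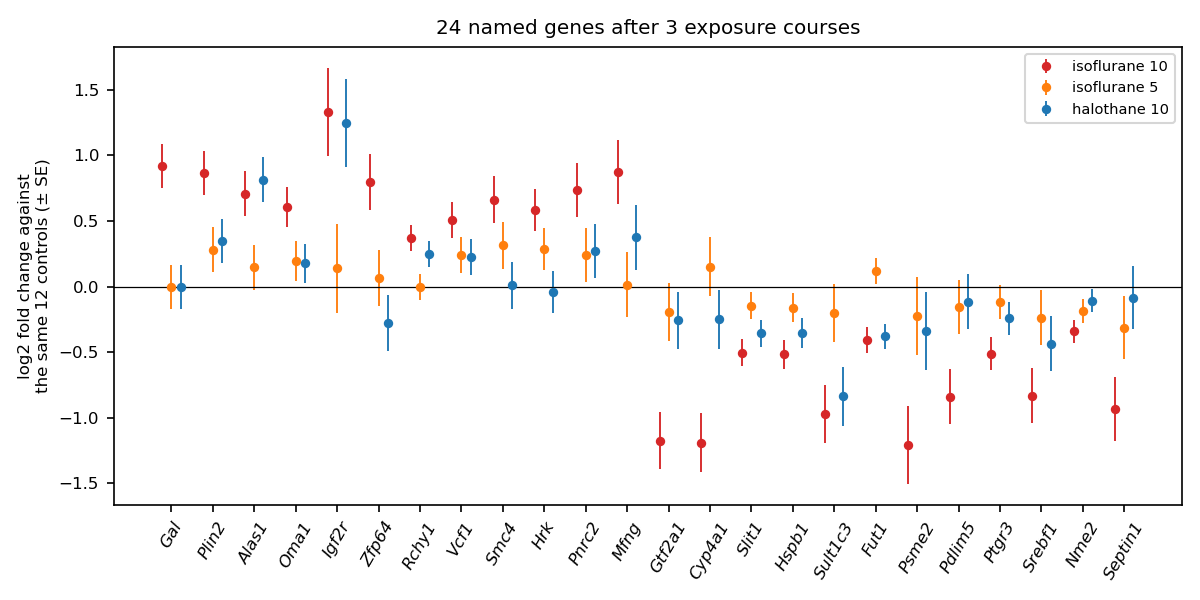
Log2 fold change against the same 12 controls, with its standard error, of the 24 named genes after 10 isoflurane (red), 5 isoflurane (orange) and 10 halothane exposures (blue). Gal has 0.92 after 10 isoflurane exposures and 0.00 after the other courses, and Igf2r 1.33 and 1.24 after 10 exposures to isoflurane and halothane; no direct contrast passed its threshold.

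Direct contrasts between exposed groups called 0 of 7389 probe sets in limma; their differences leave the control means out, while the spread was estimated over all 24 arrays, controls included. With the 12 exposed arrays alone, a fit added after the data were seen, the calls were 0 in both contrasts as well, also with the replicate number as a block. Between 10 and 5 isoflurane exposures 222 (3%) had an unadjusted p under 0.05, and the lowest adjusted p was 0.506. Gal was 0.92 higher after 10 exposures (95% interval 0.48 to 1.37), Cyp4a1 was at -1.34 (-1.93 to -0.75), Fut1 at -0.53 (-0.79 to -0.27) and Lpar2, a lysophosphatidic acid receptor, at -0.90 (-1.32 to -0.48), all on the log2 scale and each with an adjusted p of 0.506. All 3 Lpar2 values after 10 isoflurane exposures (7.3, 14.4 and 14.6) lay under the floor, so its difference depends on where the floor stands. Hibadh, an enzyme of valine breakdown, was at 0.47 and Erbb2 at 0.88.

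Between 10 isoflurane and 10 halothane exposures, given at different concentrations, 230 probe sets (3.11%) had an unadjusted p under 0.05 and the lowest adjusted p was 0.36. Gal was 0.92 higher after isoflurane (0.48 to 1.37), Zfp64 1.07 higher (0.52 to 1.63) and Pllp, a myelin protein gene, 0.56 higher (0.23 to 0.90). Zfp64 had 13.1, 16.7 and 17.2 after 10 halothane exposures, under or just above the floor, so its difference depends on the floor. Rpl13a, a ribosomal protein gene, was at -0.65, Gpx1, a glutathione peroxidase, at -0.71, Phaf1 at -0.62 and Pde5a, a cyclic GMP phosphodiesterase, at -0.47, the latter with all isoflurane arrays under the floor. Second probe sets differed between the agents by -0.10 for Rpl13a, -0.16 for Gpx1 and 0.44 for Pde5a, the last with the opposite sign. For Alas1 and Igf2r the difference between agents was -0.11 (-0.55 to 0.34) and 0.09 (-0.79 to 0.97), intervals that hold differences of either sign.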

How the data were processed

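Expression in whole rat brain was measured on single-colour oligonucleotide arrays. The authors deposited 1 linear intensity per probe set and array; the probe summary and scaling software are not stated in the labels or the table. Nearly equal 2% trimmed means point to a common scaling, which was kept. Intensities under 16.5, the 25th percentile of the table, were set to 16.5 before log2, which understates fold changes of dim genes and can shrink their spread. Of 8799 probe sets, 59 control probe sets were left out and 7389 that exceeded the floor on 3 or more arrays were tested. The platform annotation gives 1 symbol for 6018 of them, several for 267 and none for 1104; 6994 of 7018 single-symbol probe sets were found by Entrez identifier and 0 symbols changed. The number of arrays limits the precision.

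A limma 3.58.1 model (R 4.3.3) was fitted to the 24 arrays in 5 groups (eBayes with intensity trend, two-sided, Benjamini-Hochberg over 7389 probe sets). Calls needed an adjusted p under 0.05. The 43 gene lists (27 pathway and 16 marker lists) use 1 probe set per gene, that with the highest mean, and have no test. Members and lists were chosen with earlier results of these data known. Named genes are the 12 higher and 12 lower with the lowest p, the 5 largest differences each way at an unadjusted p under 0.05, up to 4 members with the lowest p and all non-overlapping members of each list, and 4 genes each way per direct contrast; list members named beyond this were chosen for their role. No 2 arrays had identical values. The code was tested on simulated data. Replicate numbers do not pair the isoflurane arrays with controls: deviations of same-numbered arrays correlated at 0.06, -0.07 and 0.31. With 5 isoflurane exposures they correlated at 0.15, 0.30 and 0.46 and with 10 halothane exposures at 0.26, 0.22 and 0.47. Replicate 3 of each has the high spike-in level. Arrays of unlike number were not correlated, so pairing of replicates 1 and 2 is not shown. The replicate number was used as a block in case the exposed groups are paired. Alternatives were other scalings, floors, filters, a pseudocount of 16, fits, left-out arrays and the spike-in level as a block or a subset.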

Additional observations from a re-analysis of the deposited data

How the results depend on the processing

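The count of 0 called probe sets against control became 4 with quantile normalization, 4 with median centring, 4 without the intensity trend, 2 under the strict filter, 1 with controls 10 to 12 left out (Erbb2, log2 fold change 0.91), 3 when spike-in level was the block, and 4 on the low spike-in arrays alone; it stayed 0 in 7 of 14 such settings. Most Erbb2 control values lay under the floor, so its call depends on the floor. Under quantile normalization, centring and no trend the 4 were Gal, Gtf2a1, Cyp4a1 and Plin2. Leaving out 1 array gave 0 to 5 calls (0 in 12 of 15): 3 without control 3 (Gtf2a1, Sult1c3 and Cyp4a1), 5 without exposed replicate 1 and 2 without exposed replicate 3. The count at an unadjusted p under 0.05 ranged from 511 to 800 with 1 array left out, and the replicate block gave 1196 with 0 calls; its numbers do not pair these arrays. In the direct contrasts, where pairing is not shown for replicates 1 and 2, the block changed no call. Non-overlapping probe sets numbered 71 to 401 with 1 array left out, 125 without controls 10 to 12 and 646 on low spike-in arrays. Against 5 isoflurane exposures the 0 calls became 1 on low spike-in arrays and 0 to 2 with 1 array left out (2 without exposed replicate 1). Against 10 halothane exposures they were 0 to 1, with 1 without exposed replicate 1, without exposed replicate 3 or without halothane replicate 2. The cause of these moves was not tested. Of 823 values of 29 named genes under other settings 796 kept their side of the threshold, 27 passed it and 0 changed sign. These genes were picked by the main fit, so kept signs add no support. The values smallest in size were 0.05 for Mfng, -0.08 for Sult1c3 and -0.14 for Septin1. Of 1290 list medians 1230 moved by less than the spread between replicates. That spread was widest for the pituitary (0.69) and hypothalamus (0.64) lists, and none of their medians counted as moved. They ran from -0.32 to 0.25 and from -0.26 to 0.08. In 29 of 43 lists 72 medians changed sign. Of these 10 were for pituitary, 8 for GABA and glycine receptor, 6 for olfactory and 5 for myelin lists.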
